A study of Homo sapiens with 18 samples.

Results

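The comparison described here is that of OVCAR5 cells given 50 µM stearate and DMSO with OVCAR5 cells given DMSO alone. The DMSO vehicle carried no CAY10566, the inhibitor of stearoyl-CoA desaturase used elsewhere in the series, so the desaturase of these cells was left active. Labels and column names fixed the members: 3 stearate+DMSO samples and 3 DMSO samples of the 18 samples in the series, and the 13720 of 60483 listed genes (22.7%) whose mean over these 6 samples was at least 1 TPM. TPM is a length-corrected estimate of how much of the transcript pool a gene makes up. Its total is fixed in each sample, so the sequencing depth is unknown. OVCAR5 cells are an established human cancer line, given in the labels as wild-type high-grade ovarian serous adenocarcinoma. All groups were cultured for 24 h and then kept for 24 h in medium with 5% fatty acid-free BSA. The other groups used below received 1 µM CAY10566 alone, 50 µM stearate with 1 µM CAY10566, or 50 µM oleate with DMSO. The labels number 3 replicates per group without saying how far back they were separate cultures, so the p-values measure the spread between these samples only.

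Stearate is a saturated fatty acid that cells take up, activate to a CoA ester and either desaturate to oleate or build into lipids as it is. Saturated acyl chains in the membrane of the endoplasmic reticulum (ER) are known to engage the unfolded protein response (UPR), whose sensors IRE1α, PERK and ATF6 raise chaperones, ER-associated degradation and, through ATF4, amino acid and redox genes. Saturated acyl-CoA is also a substrate of ceramide synthesis.

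Differences were tested in limma on log2(TPM + 1), 3 samples against 3. A gene was called when its false discovery rate (FDR, Benjamini-Hochberg) was under 0.05 and its log2 fold change exceeded 0.32 in either direction, the fold limit. All FDR values below are from that test. The log2(TPM + 1) scale understates the change of genes with low TPM. An exact permutation test on a single gene cannot go below p = 0.1 with 3 against 3. Across genes, the correlation between samples was 0.983 to 0.987 within the groups and 0.979 to 0.983 between them. Of the epithelial markers, 8 of 8 were expressed, from 37.4 to 51.5 TPM for CDH1 up to 770 to 980 TPM for KRT8. Of the Müllerian and serous ovarian markers, PAX8 lay at 9.70 to 13.4 TPM and FOLR1 at 3.09 to 5.54 TPM, whereas WT1, SOX17 and EMX2 did not exceed 0.2 TPM in any of the 6 samples and MUC16, MSLN and ESR1 had means under 1 TPM. The intestinal factor CDX2 was present at 2.50 to 5.55 TPM and CDX1 was listed at 0, so the markers bore out an epithelial line more clearly than a serous one. Of the leukocyte markers, 1 of 6 reached the filter, CD68 at 81.9 to 92.5 TPM, while PTPRC and CD3E lay between 0 and 0.06 TPM. Of the fibroblast markers, 1 of 7 did, COL1A1 at 3.10 to 6.39 TPM, while DCN was listed at 0, and of the 5 endothelial markers 0 did.

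Stearate changed the expression of 985 genes (7.18%) in these cells, and the falls were fewer but larger than the rises. Of the 13720 genes, 745 (5.43%) were called higher and 240 (1.75%) lower, the shares against which each gene list below is to be read. The median log2 fold change was 0.43 among the higher calls and -0.51 among the lower calls. Of the calls, 873 were on protein-coding genes and 67 on lncRNA genes. As TPM is a share and the samples are bulk RNA, more of a gene's RNA per cell and more cells that express it cannot be told apart. The split into rises and falls depended on the scaling. Dividing each sample by a median-of-ratios size factor moved the median over all genes from 0.09 to 0.0063 (log2), a shift of 0.08, and left 342 higher (2.49%) and 416 lower (3.03%) calls, 5.52% of genes in all. The share of higher calls went from 75.6% to 45.1%. All 342 of these rises and 240 of these 416 falls were also called on the deposited scale, so every fall called on the deposited scale kept its call. The 3 stearate values lay wholly above the 3 DMSO values for 3915 genes (28.5%) and wholly below for 1313 (9.57%). The number of higher calls also rested on single libraries: it was 1182 without stearate+DMSO replicate 3, 50 without stearate+DMSO replicate 2, 107 without stearate+DMSO replicate 1, and 162, 75 and 136 without DMSO replicates 1, 2 and 3. The lower calls numbered 242, 77, 107, 104, 81 and 110 in the same order. There were 100 genes, 37 higher and 63 lower, that were called in all 6 of these smaller comparisons, and 658 of the 985 were called in at most 1 of them. Over all tested genes, 67.7% had a log2 fold change above 0 as deposited.

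**Figure D1:**
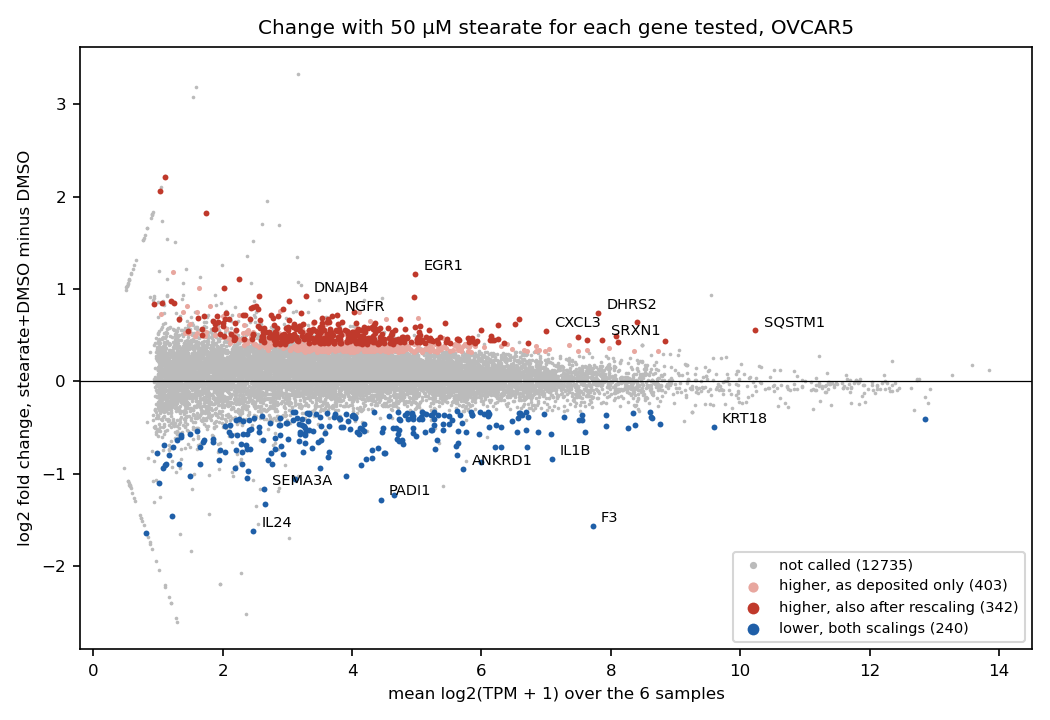
Each point is 1 of the 13720 genes tested, with the mean log2(TPM + 1) over the 6 samples on the x axis and the log2 fold change of stearate+DMSO minus DMSO on the y axis. The 745 genes called higher are split into 342 that were also called after median-of-ratios rescaling and 403 that were not, and the 240 genes called lower were called on both scalings; F3 and IL24 lie lowest among the labelled genes and EGR1 highest.

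EGR1, an immediate-early zinc finger transcription factor on chromosome 5 (138465479 to 138469303, GRCh38), showed the largest rise among called genes with a mean of at least 5 TPM and no overlap between the groups. It measured 20.9, 19.9 and 19.5 TPM in the DMSO samples and 50.4, 42.8 and 45.5 TPM with stearate. The lowest stearate sample was thus above the highest control by more than the whole spread of either group, and the means differed 2.30-fold (log2 fold change 1.16, standard error 0.07, FDR = 0.000504). FOS, another immediate-early factor, went from 6.44, 6.88 and 5.86 TPM to 10.4, 10.9 and 9.42 TPM (log2 fold change 0.60, FDR = 0.0123), and ATF3, a stress-induced bZIP factor, from 50.7, 49.7 and 51.1 TPM to 68.0, 63.7 and 72.0 TPM (0.42, FDR = 0.00784). These 3 were the called members of a list of 21 tested immediate-early genes, whose median log2 fold change was 0.04 as deposited and -0.01 after rescaling. JUN (log2 fold change 0.01) and IER3 (0.02) were not called. The EGR1 promoter is shown because it holds 2 CArG boxes, the motif of serum response factor, between 105 and 74 bases before the start site; the capitals mark them in the RefSeq sequence of 250 bases at chr5:138465229-138465478 (GRCh38.p14, plus strand).
EGR1: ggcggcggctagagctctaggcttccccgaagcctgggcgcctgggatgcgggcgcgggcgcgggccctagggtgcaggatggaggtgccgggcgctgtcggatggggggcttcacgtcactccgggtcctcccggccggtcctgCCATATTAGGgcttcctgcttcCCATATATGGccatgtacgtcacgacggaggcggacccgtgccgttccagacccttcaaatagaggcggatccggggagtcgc

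The other large rises were spread over several functions. DHRS2, a mitochondrial short-chain dehydrogenase, was the most abundant of them and the most tightly measured. It stood at 169, 168 and 179 TPM in the controls and at 282, 291 and 295 TPM with stearate (log2 fold change 0.74, standard error 0.04, FDR = 0.000266). DNAJB4, a cytosolic HSP40 co-chaperone, went from 6.43, 6.03 and 5.72 TPM to 12.9, 13.6 and 10.7 TPM (log2 fold change 0.92, FDR = 0.005). NGFR, the low-affinity neurotrophin receptor, went from 9.39, 9.15 and 10.3 TPM to 17.0, 17.7 and 14.7 TPM (log2 fold change 0.72, FDR = 0.00772). EGR1, DHRS2, DNAJB4 and NGFR kept their call whichever library was left out. The remaining 8 of the 12 largest rises were called in 1 to 3 of those 6 smaller comparisons. CCNE2, a G1/S cyclin, had values of 4.51, 2.46 and 3.18 TPM in the controls and 8.75, 6.58 and 6.35 TPM with stearate (log2 fold change 0.92, FDR = 0.026). SGMS2, which makes sphingomyelin from ceramide at the plasma membrane, had 12.6, 10.1 and 12.2 TPM against 20.6, 23.7 and 17.0 TPM (log2 fold change 0.76, FDR = 0.0176). The others were IFI27L1 (0.88), FBXL17 (0.79), ATXN7 (0.74), KLHL28 (0.72), SRGAP2B (0.75) and PIGY (0.91). SRGAP2B has near-identical paralogs and PIGY overlaps another gene, so reads could have been split between them and these values are uncertain, and SRGAP2B was the only 1 of the 12 that lost its call after rescaling.

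The largest falls included genes for secreted, cell-surface and intracellular proteins. IL24, a cytokine of the IL-10 family on chromosome 1 (206897443 to 206904139), measured 8.08, 8.69 and 9.56 TPM in the controls and 2.14, 1.88 and 2.52 TPM with stearate. That is a 4.03-fold lower mean, with a gap between the groups several times the spread within them (log2 fold change -1.62, standard error 0.12, FDR = 0.000935). F3, which encodes tissue factor, the cell-surface initiator of the coagulation cascade, lies on the same chromosome (94529173 to 94541759, minus strand). It was far more abundant, at 364, 381 and 340 TPM in the controls and 125, 129 and 111 TPM with stearate. Its 2.97-fold lower mean had the smallest FDR of all genes (log2 fold change -1.56, standard error 0.06, FDR = 0.000197). PADI1, a peptidylarginine deiminase of differentiating epithelium, went from 32.7, 34.5 and 31.1 TPM to 12.5, 13.9 and 12.5 TPM (log2 fold change -1.28, FDR = 0.000373). ANKRD1, an ankyrin-repeat protein and well-known target of YAP, went from 76.8, 70.3 and 69.0 TPM to 39.8, 37.1 and 34.0 TPM (log2 fold change -0.94, FDR = 0.000946). In neither gene did a stearate sample come near a control. SEMA3A, a secreted guidance factor, went from 9.94, 8.05 and 7.06 TPM to 3.68, 3.16 and 2.65 TPM (log2 fold change -1.16, FDR = 0.00784). The others of the 12 were CXCR5, a chemokine receptor (-1.32), MB, myoglobin (-1.23), SPNS2, a sphingosine-1-phosphate transporter (-1.06), FGFBP1, an FGF carrier (-1.03), the lncRNA gene IGFL2-AS1 (-0.94), AKR1C2, an aldo-keto reductase (-0.90), and PLAC8 (-0.87). All 12 were called after rescaling. Of these falls, 9 were called whichever library was left out; the exceptions were SPNS2 (5 of 6 smaller comparisons), IGFL2-AS1 (2) and CXCR5 (1), whose stearate values ran from 1.63 to 4.59 TPM.

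**Figure D2:**
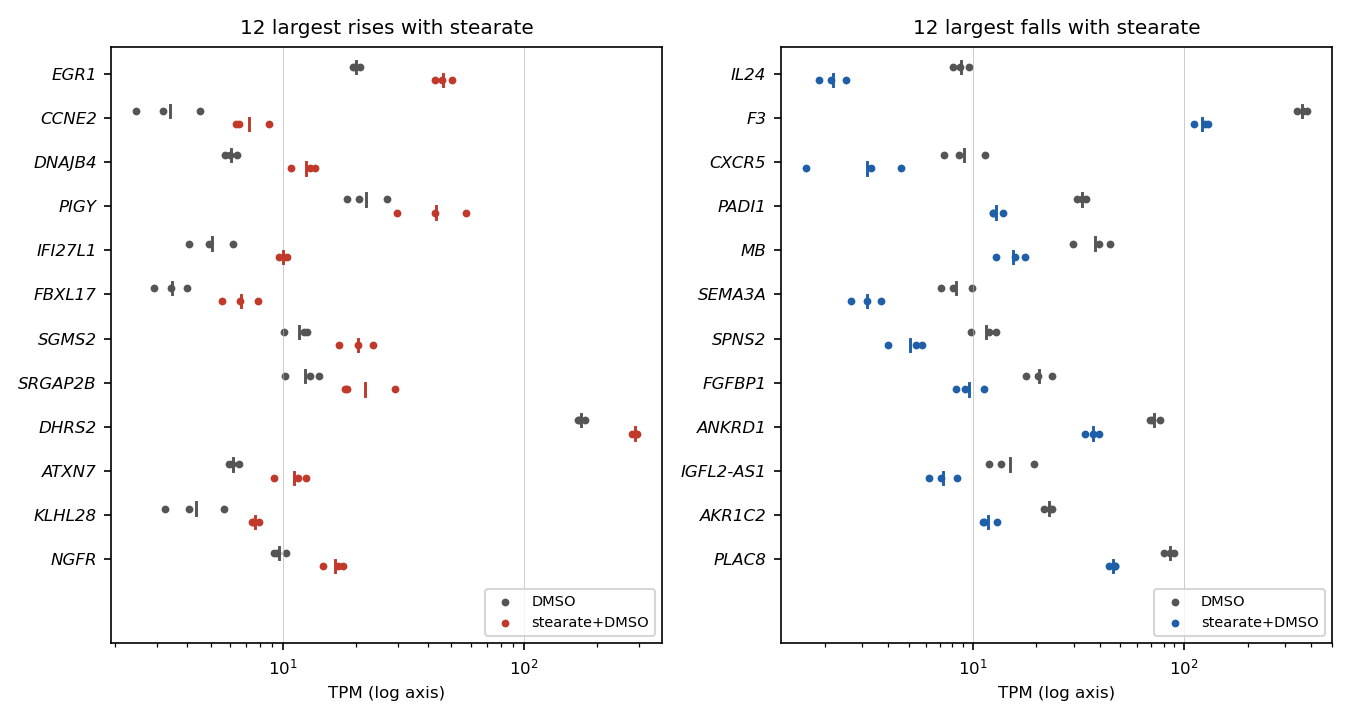
TPM (log axis) of the 12 largest rises (left) and 12 largest falls (right) in each of the 3 DMSO (grey) and 3 stearate+DMSO (coloured) samples; each point is 1 sample and each bar a group mean. The groups do not overlap for any of the 24 genes, which was part of the rule that chose them; IL24 goes from 8.08 to 9.56 TPM down to 1.88 to 2.52 TPM.

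The promoters of F3 and ANKRD1 are shown because they hold the AP-1 motif TGANTCA and, in ANKRD1, the TEAD motif GGAATG as well. Both are given 5′ to 3′ for the 250 bases before the RefSeq start site, on the minus strand, with the matches in capitals: chr1:94541760-94542009 for F3, with AP-1 letters at 223 and 210 bases before the start, and chr10:90921088-90921337 for ANKRD1, with 1 AP-1 and 2 TEAD matches (GRCh38.p14).
F3: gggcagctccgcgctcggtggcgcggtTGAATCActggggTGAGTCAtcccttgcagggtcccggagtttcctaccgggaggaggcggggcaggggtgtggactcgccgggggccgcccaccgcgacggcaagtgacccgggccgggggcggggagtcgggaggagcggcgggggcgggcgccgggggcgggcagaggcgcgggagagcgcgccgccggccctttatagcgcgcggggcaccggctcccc
ANKRD1: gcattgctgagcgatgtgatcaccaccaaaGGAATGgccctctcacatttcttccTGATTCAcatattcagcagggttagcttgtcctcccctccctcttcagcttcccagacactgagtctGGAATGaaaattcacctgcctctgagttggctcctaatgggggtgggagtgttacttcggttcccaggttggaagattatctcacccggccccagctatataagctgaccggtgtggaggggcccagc
Of 27303 RefSeq promoters of this length, 6.6% held TGANTCA on either strand and 11.9% held GGAATG; of the 10073 that belonged to tested genes, 3.94% and 9.34% did. Among the 146 lower-called genes with a promoter in the table, 7.53% and 13.7% did, and among the 271 rises called on both scalings 6.64% and 12.5%; a CArG box was in 1.14% of all promoters, 0.953% of those of tested genes, 2.74% of the falls and 1.85% of the rises. The promoter of IL24 held neither the AP-1 nor the TEAD letters in this window.

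Among genes of fatty acid synthesis, FASN fell with stearate, and the desaturase gene itself was not called. SCD, which encodes stearoyl-CoA desaturase, had 185, 183 and 167 TPM in the controls and 170, 152 and 131 TPM with stearate. These ranges overlapped (log2 fold change -0.25, standard error 0.09, FDR = 0.102); after rescaling the value was -0.34, which was called. FASN, the fatty acid synthase, fell from 97.5, 109 and 93.8 TPM to 56.4, 61.5 and 65.0 TPM (log2 fold change -0.71, FDR = 0.00389), with all 3 stearate samples below all controls and the call kept whichever library was left out. ACSS2, which makes acetyl-CoA from acetate, was called lower by less (-0.36, FDR = 0.03), a call found in 1 of 6 comparisons with 1 library left out and lost after removal of length and GC trends, and ELOVL7, an elongase of long-chain acyl-CoA, rose (0.40, FDR = 0.0343) on the deposited scale only. Of the 16 tested genes of fatty acid synthesis, desaturation and elongation, 1 was called higher and 2 lower, with a median log2 fold change of -0.00 as deposited and -0.09 rescaled. SREBF1, the transcription factor that drives this pathway, had a log2 fold change of -0.24 (FDR = 0.0375), under the fold limit as deposited and called lower after rescaling (-0.32). Of 28 tested genes of cholesterol synthesis and uptake, 0 were called as deposited and 2 after rescaling, EBP (-0.38) and MVD (-0.37); the list's median was -0.04 as deposited and -0.13 rescaled.

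Among genes of ceramide and sphingolipid synthesis, 3 of 24 rose (12.5%, against 5.43% of all genes) and 1 fell (1.75% of all genes did). Each of the 3 rises was called in 1 of 6 comparisons with 1 library left out, and SGMS2 alone of them kept its call after removal of length and GC trends. Besides SGMS2, the risers were SPTLC3, a subunit of the serine palmitoyltransferase that starts ceramide synthesis, at 1.68, 1.63 and 0.97 TPM against 3.37, 2.80 and 2.51 TPM (log2 fold change 0.69, FDR = 0.0383), and CERS6, a ceramide synthase (0.39, FDR = 0.0221), which lost its call after rescaling. UGCG, which converts ceramide to glucosylceramide, fell from 67.0, 62.9 and 63.2 TPM to 43.8, 48.7 and 38.9 TPM (-0.55, FDR = 0.0107). The more abundant subunits SPTLC1 (0.05) and SPTLC2 (0.09) and the synthase CERS2 (0.00) were not called. Of 21 tested genes of lipid droplets and triglyceride synthesis, 1 was called, the monoacylglycerol lipase MGLL (-0.51, FDR = 0.00988). Of 25 PPAR targets and fatty acid oxidation genes, CPT2 (0.38) and SLC25A20 (0.40), both of the carnitine shuttle into mitochondria, were called higher as deposited and neither after rescaling. In phospholipid synthesis and remodelling, 1 of 26 rose, the lysophospholipid acyltransferase MBOAT1 (0.45).

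Stearate raised several UPR regulators by small amounts. Of 14 tested UPR sensors and transcription factors, 4 were called higher (28.6%, against 5.43% of all genes) and 0 lower, and 13 lay above 0 (67.7% of all genes did), with a median log2 fold change of 0.20 as deposited and 0.11 rescaled. The 4 were ATF5 (0.52), ATF3 (0.42), CREB3L2 (0.38) and ERN1, which encodes IRE1α (0.33, FDR = 0.0383), and ATF5 and ATF3 were the ones also called after rescaling. With 1 library left out, ATF3 was called in 6 of 6 comparisons, ATF5 in 2, and CREB3L2 and ERN1 in 1, and the last 2 also lost their call after removal of length and GC trends. ERN1 measured 14.7, 15 and 15.8 TPM in the controls and 20.6, 20.2 and 17.3 TPM with stearate. ATF4 was the most precisely measured of the list, at 541, 540 and 543 TPM against 619, 612 and 606 TPM. That difference, 0.18 on the log2 scale (standard error 0.02, FDR = 0.00791), was larger than the spread between replicates and below the fold limit. It was 0.09 after rescaling (FDR = 0.0934) and 0.28 after removal of length and GC trends (FDR = 0.00152), under the fold limit in both. XBP1 behaved alike, with 165, 161 and 157 TPM against 192, 186 and 183 TPM (0.21, FDR = 0.0167). DDIT3, which encodes CHOP, had overlapping groups, at 153, 135 and 144 TPM against 161, 152 and 167 TPM (0.15, FDR = 0.0967). Its value was 0.06 after rescaling (FDR = 0.51) and 0.24 after removal of the trends (FDR = 0.0342), and it was called in neither setting. EIF2AK3, which encodes PERK (0.22, FDR = 0.355), and ATF6 (0.11, FDR = 0.39) were not called.

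In the machinery that the UPR sensors act on, the ER-associated degradation genes HERPUD1, SYVN1 and SEL1L rose, 3 of 19 (15.8%, against 5.43% of all genes), with 18 of 19 above 0, against 67.7% of all genes, and a median of 0.20 (0.11 rescaled). HERPUD1, an ER membrane protein of the degradation complex, went from 84.8, 87.1 and 92.8 TPM to 115, 110 and 111 TPM (log2 fold change 0.35, standard error 0.04, FDR = 0.00791). SYVN1, the ubiquitin ligase HRD1, had a log2 fold change of 0.35, and its partner SEL1L 0.44, the only 1 of the 3 called after rescaling. After removal of length and GC trends HERPUD1 and SYVN1 kept their calls and SEL1L lost its own. With 1 library left out, HERPUD1 was called in 5 of 6 comparisons, and SYVN1 and SEL1L in 1. Of 22 ER chaperones and folding enzymes, 1 rose (4.55%, near the share of all genes), the lectin chaperone CANX, from 383, 359 and 389 TPM to 518, 490 and 416 TPM (0.33, FDR = 0.0342). CANX lost its call after rescaling (0.24) and after removal of length and GC trends (0.21), and was called in 1 of 6 comparisons with 1 library left out. HSPA5, the chaperone BiP, measured 472 ± 23.8 TPM in the controls and 577 ± 22.8 TPM with stearate (SD, n = 3 each). Its log2 fold change of 0.29 (FDR = 0.0124) was just under the fold limit.

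Coat genes of transport between the ER and the Golgi were among the rises. In the COPII coat, which buds vesicles from the ER, 3 of 18 genes rose (16.7%, against 5.43% of all genes), SEC24D (0.51), SEC23A (0.45) and SEC24A (0.40). In this list 18 of 18 lay above 0, against 67.7% of all genes, with a median of 0.16 as deposited and 0.07 rescaled. SEC24D went from 9.77, 9.16 and 10.7 TPM to 14.9, 14.6 and 13.9 TPM. Of 36 Golgi coat and tether genes, 4 rose (11.1%, against 5.43% of all genes): the golgins TRIP11 (0.57) and GCC2 (0.34), COG5 (0.46) and GBF1 (0.39). After rescaling, SEC24D, SEC23A and TRIP11 kept their calls and the other 4 did not. That left 2 of 18 COPII genes and 1 of 36 Golgi genes, where 2.49% of all genes were called higher. Removal of length and GC trends ended the calls of SEC24A, GCC2 and COG5; the transcripts of TRIP11 (9996 bases), GCC2 (8239) and GBF1 (7436) are long, and the median change of all genes was larger in longer transcripts. With 1 library left out, TRIP11 was called in 4 of 6 comparisons, SEC24D and SEC23A in 2, and the others in 1.

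Amino acid, redox and autophagy genes also rose in part. Of 36 tested targets of ATF4 in amino acid metabolism, 6 rose (16.7%, against 5.43% of all genes) and 0 fell, with a median of 0.09 that was 0.00 after rescaling. CHAC1, which degrades glutathione, went from 31.6, 31 and 30.4 TPM to 43.7, 41.5 and 43.4 TPM (log2 fold change 0.45, FDR = 0.00411). SESN2, a leucine sensor upstream of mTORC1, went from 22.6, 22.8 and 22.6 TPM to 31.6, 30.2 and 32.3 TPM (0.45, FDR = 0.00533). Both kept their call after rescaling and whichever library was left out. The other rises were those of SLC7A11, the cystine importer (0.44), SLC1A4 (0.42) and SLC38A2 (0.33), neutral amino acid transporters, and VLDLR, a lipoprotein receptor (0.37); SLC38A2 and VLDLR were not called after rescaling, and they and SLC7A11 were not called after removal of length and GC trends. Either setting gave 4 higher calls and 1 lower in the list, the fourth higher call after removal of the trends being CEBPB, which was not called as deposited. Other targets were hardly moved: ASNS had 0.15, TRIB3 0.13 and SLC3A2 0.12. NUPR1, chosen after its values were seen, went the other way, with 12.1 ± 3.54 TPM in the controls and 5.64 ± 2.65 TPM with stearate (SD, n = 3 each). The difference of -1.02 (log2) was not called (FDR = 0.0525) and was called after rescaling.

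Of 22 tested NRF2 targets and iron storage genes, 4 rose (18.2%, against 5.43% of all genes) and 2 fell (1.75% of all genes did). SRXN1, which repairs oxidised peroxiredoxins, went from 196, 197 and 201 TPM to 270, 277 and 269 TPM (log2 fold change 0.45, standard error 0.03, FDR = 0.000523), with all 3 stearate samples far above all controls. GCLC, the catalytic subunit of the first enzyme of glutathione synthesis (0.49), OSGIN1 (0.44) and SLC7A11 were the other rises. The falls were those of the aldo-keto reductases AKR1C2 and AKR1B10 (-0.45), so members of this list moved in both directions. AKR1B10 and SLC7A11 lost their calls after removal of length and GC trends. Of 23 autophagy and lysosome genes, 5 rose (21.7%, against 5.43% of all genes) and 0 fell, with a median of 0.11, near that of all genes. SQSTM1, the autophagy receptor p62, was the most abundant of all genes called higher, at 993, 949 and 1037 TPM in the controls and 1505, 1457 and 1411 TPM with stearate (log2 fold change 0.55, FDR = 0.00087). GABARAPL1 (0.44) was the other that kept its call after rescaling, and LAMP2 (0.41), ATP6V1A (0.36) and ATG16L1 (0.36) did not. With 1 library left out, GABARAPL1 was called in 2 of 6 comparisons, and LAMP2 and ATG16L1 in 1. After removal of length and GC trends 3 of the list were called higher, and LAMP2 lost its call. Of 26 cytosolic heat shock genes, 2 rose (7.69%), DNAJB4 and HSPA4L (0.58), and HSPA1A had 0.30 (FDR = 0.0541).

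The promoters of CANX and CHAC1 are shown because they hold the motifs of the UPR: the ER stress response element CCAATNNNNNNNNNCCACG in CANX (chr5:179698679-179698928, plus strand) and the element TGATGNAAN bound by ATF4 with a C/EBP partner in CHAC1 (chr15:40953221-40953470, plus strand, on the opposite strand of the motif). Capitals mark the match in the 250 bases before each RefSeq start (GRCh38.p14).
CANX: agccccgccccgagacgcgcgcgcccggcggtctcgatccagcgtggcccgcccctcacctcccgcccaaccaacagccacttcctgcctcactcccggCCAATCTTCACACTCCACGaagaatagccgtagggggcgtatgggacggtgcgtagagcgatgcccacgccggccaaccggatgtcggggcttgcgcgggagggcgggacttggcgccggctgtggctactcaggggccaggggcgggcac
CHAC1: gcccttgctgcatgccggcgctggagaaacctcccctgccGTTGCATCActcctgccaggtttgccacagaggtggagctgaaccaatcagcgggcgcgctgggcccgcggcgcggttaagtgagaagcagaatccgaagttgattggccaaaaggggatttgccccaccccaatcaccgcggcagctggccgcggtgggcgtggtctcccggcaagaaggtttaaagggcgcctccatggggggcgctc
Of the 109 tested genes of the UPR, ER, ATF4 and COPII lists, 97 had a promoter in the table; 7.22% of them held the ER stress response element, against 0.0806% of all 27303 promoters and 0.139% of those of tested genes, and 7.22% held the ATF4 element, against 3.18% and 1.31%. Among the rises called on both scalings and the falls, 2.21% and 5.48% held the ATF4 element and 0% of either held the ER stress response element. Some of these lists are known from such motifs, so the shares describe the lists and not the change with stearate. Of the 7 genes with the ER stress response element, CANX alone was called, and not after rescaling; HSPA5, HSP90B1 (0.17), CALR (0.13) and XBP1 were among the others. Of the remaining motifs searched on both strands, TGACGTG was in 1.71% of all promoters, 2.17% of those of tested genes, 1.48% of the rises called on both scalings and 0.685% of the falls, and the heat shock element was in 0.44%, 0.238%, 0.738% and 0%.

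Genes for secreted signals moved in both directions. Of 21 tested cytokines and chemokines, 5 fell (23.8%, against 1.75% of all genes) and 3 rose (14.3%). Besides IL24, IL1B, which encodes interleukin-1β, fell from 175, 183 and 185 TPM to 100, 97.6 and 104 TPM (log2 fold change -0.84, standard error 0.04, FDR = 0.000266), and IL11 from 35.9, 36.3 and 37.3 TPM to 24.8, 22.2 and 26.4 TPM (-0.56, FDR = 0.0073). IL32 (-0.48) and IL6 (-0.40, FDR = 0.00369) also fell. The neutrophil chemokine gene CXCL3 rose from 107, 98.7 and 108 TPM to 149, 147 and 165 TPM (0.55, FDR = 0.00411). CXCL2 (0.35) and CXCL16 (0.34) were called higher as deposited and not after rescaling. The groups of IL1B, IL11 and CXCL3 were each separated by more than the spread within them, and these 3 calls held whichever library was left out.

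Of 18 tested squamous and cornified epithelial genes, 6 fell (33.3%, against 1.75% of all genes), 0 rose and 12 were not called; after rescaling 8 fell (3.03% of all genes did), with a median log2 fold change of -0.32 as deposited and -0.40 rescaled. KRT17, a stress keratin of stratified epithelium, went from 2.7, 3.92 and 2.17 TPM to 0.41, 0.34 and 0.47 TPM (-1.46, FDR = 0.00791), and KRT6A, its usual companion, from 1.67, 3.34 and 1.23 TPM to 0.47, 0.33 and 0.35 TPM (-1.10, FDR = 0.0335). KRT6A has near-identical paralogs, so its value is uncertain, and its call was lost whichever library was left out. Both genes are close to the filter of 1 TPM. PADI1, PADI3 (-0.72), FGFBP1 and SCEL (-0.52) were the other 4. The most abundant member, LCN2, which encodes a secreted siderophore-binding lipocalin, went the other way, with 2161 TPM on average in the controls and 2606 TPM with stearate; its log2 fold change of 0.27 (FDR = 0.0178) was under the fold limit, and it was called higher after removal of length and GC trends (0.40). The summed TPM of the list, of which LCN2 is most, was therefore higher with stearate, at 2768 to 2901 against 2338 to 2597. The simple epithelial keratins moved the same way from far higher levels. KRT18 fell from 920, 927 and 892 TPM to 668, 632 and 647 TPM (log2 fold change -0.49, standard error 0.03, FDR = 0.000504), and KRT7 from 459, 453 and 438 TPM to 350, 348 and 338 TPM (-0.38, FDR = 0.00123). KRT19 (-0.32) and KRT8 (-0.25) had FDRs of 0.00957 and 0.0166 but stayed under the fold limit. EPCAM, at 334, 353 and 342 TPM against 323, 339 and 325 TPM, was not called (-0.06, FDR = 0.245), nor was CDH1 (-0.09). The tight-junction genes CLDN4 (-0.13, FDR = 0.0485) and CLDN7 (-0.10, FDR = 0.0787) were not called either, although their groups did not overlap. Of the 8 epithelial markers, 2 were called, 6 had all stearate values below all controls and 0 lay above 0. After rescaling 4 were called, KRT8 and KRT19 with the others, and after removal of length and GC trends 1, as KRT7 (-0.25) lost its call.

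Of the coagulation and plasminogen genes, 2 of 13 fell (15.4%, against 1.75% of all genes) as deposited, F3 and PLAT, and 7 after rescaling (3.03% of all genes), with a median of -0.24 and -0.33. PLAT, tissue plasminogen activator, went from 63.5, 68.6 and 60.2 TPM to 38.3, 38.1 and 33.0 TPM (log2 fold change -0.80, FDR = 0.00284). PLAU, which encodes urokinase, was abundant at 834 ± 28.4 TPM in the controls and had a log2 fold change of -0.25 (FDR = 0.0062), under the fold limit, whereas its receptor PLAUR had 0.16. Of 25 YAP and TEAD targets, 3 fell, F3, ANKRD1 and TGFB2 (-0.57), and 3 rose, PTPN14 (0.52), YAP1 (0.46) and ASAP1 (0.33); the rise of YAP1 alone was also called after rescaling, and each of the 3 rises was called in 1 of 6 comparisons with 1 library left out. The classical targets of this list did not share a direction, since CCN1 had -0.18 (FDR = 0.0269) and CCN2 0.32 (FDR = 0.005), both under the fold limit. In the list of epithelial to mesenchymal transition, 4 of 17 fell (23.5%, against 1.75% of all genes) and 0 rose: TGFB2, FN1, fibronectin (-0.55, FDR = 0.0123), INHBA, the activin A subunit (-0.42), and SNAI2 (-0.41, FDR = 0.0497); the calls of INHBA and SNAI2 were lost whichever library was left out. Among semaphorins and their receptors, SEMA3A, SEMA3B (-0.51) and SEMA3F (-0.37) fell and the receptor NRP2 rose (0.46), 4 of 13 tested; the call of SEMA3F was lost whichever library was left out. DKK1, a secreted Wnt antagonist, fell (-0.90, FDR = 0.0453), 1 of 6 tested in its list, and its call was lost whichever library was left out. In the feedback genes of ERK signalling, 2 of 20 rose, SPRED1 (0.64), which lost its call after removal of length and GC trends, and ETV5 (0.45), which kept it whichever library was left out, and of 12 EGF ligands and receptors 0 were called as deposited and 1, AREG, was called lower after rescaling (-0.40).

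Genes of growth and death were called in small numbers. Of 45 DNA replication genes, 4 rose (8.89%), MCM4, a helicase subunit (0.56), RRM2, of ribonucleotide reductase (0.48), CDC6 (0.41) and ORC1 (0.39), and 39 lay above 0 (67.7% of all genes did). MCM4 went from 53, 51.3 and 49.8 TPM to 84.1, 77.2 and 68.0 TPM (FDR = 0.00876). The list's median was 0.16 as deposited and 0.08 rescaled, and ORC1 lost its call after rescaling. With 1 library left out, CDC6 was called in 3 of 6 comparisons, RRM2 in 2 and ORC1 in 1. Of 28 mitotic genes 1 was called higher, CENPE (0.38), in 1 of 6 comparisons with 1 library left out and neither after rescaling nor after removal of length and GC trends; CCNB1 had -0.01. Of 36 double-strand break repair genes 2 rose (5.56%, near the background), DCLRE1C (0.45) and BLM (0.41), the call of BLM being lost whichever library was left out. In the p53 target list 3 of 24 rose (12.5%), RRM2B (0.46), SESN2 and TIGAR (0.42), whereas CDKN1A, which encodes p21, had 0.16 (FDR = 0.0357), under the fold limit. TIGAR lost its call after rescaling and after removal of length and GC trends, and with 1 library left out TIGAR was called in 2 of 6 comparisons and RRM2B in 1. Of 29 apoptosis genes 3 rose (10.3%), among them BCL2L11, which encodes the BH3-only protein BIM (0.57), and APAF1 (0.40), and 0 fell; BCL2L11 alone of these was called after rescaling, and its call was lost whichever library was left out. BCL2L11 measured 7.44, 5.71 and 6.22 TPM in the controls and 8.59, 10.7 and 10.9 TPM with stearate. In cilium assembly 2 of 41 rose (4.88%, near the 5.43% of all genes), TTC21B (0.40) and KIF3B (0.39), neither after rescaling nor after removal of length and GC trends. The interferon list had 3 rises, among them OAS3 (0.40) and RIGI (0.35), none of the 3 after rescaling, and 1 fall, IFITM1 (-0.50, FDR = 0.0045), of 20 tested. After rescaling 3 of the 20, IFITM1 among them, were called lower, as were 3.03% of all genes. In the hypoxia and glycolysis list CA9, carbonic anhydrase IX, was the single call of 23 as deposited, going from 23.9, 26.1 and 21.6 TPM to 13.2, 12.7 and 12.6 TPM (-0.84, FDR = 0.00287).

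**Figure D3:**
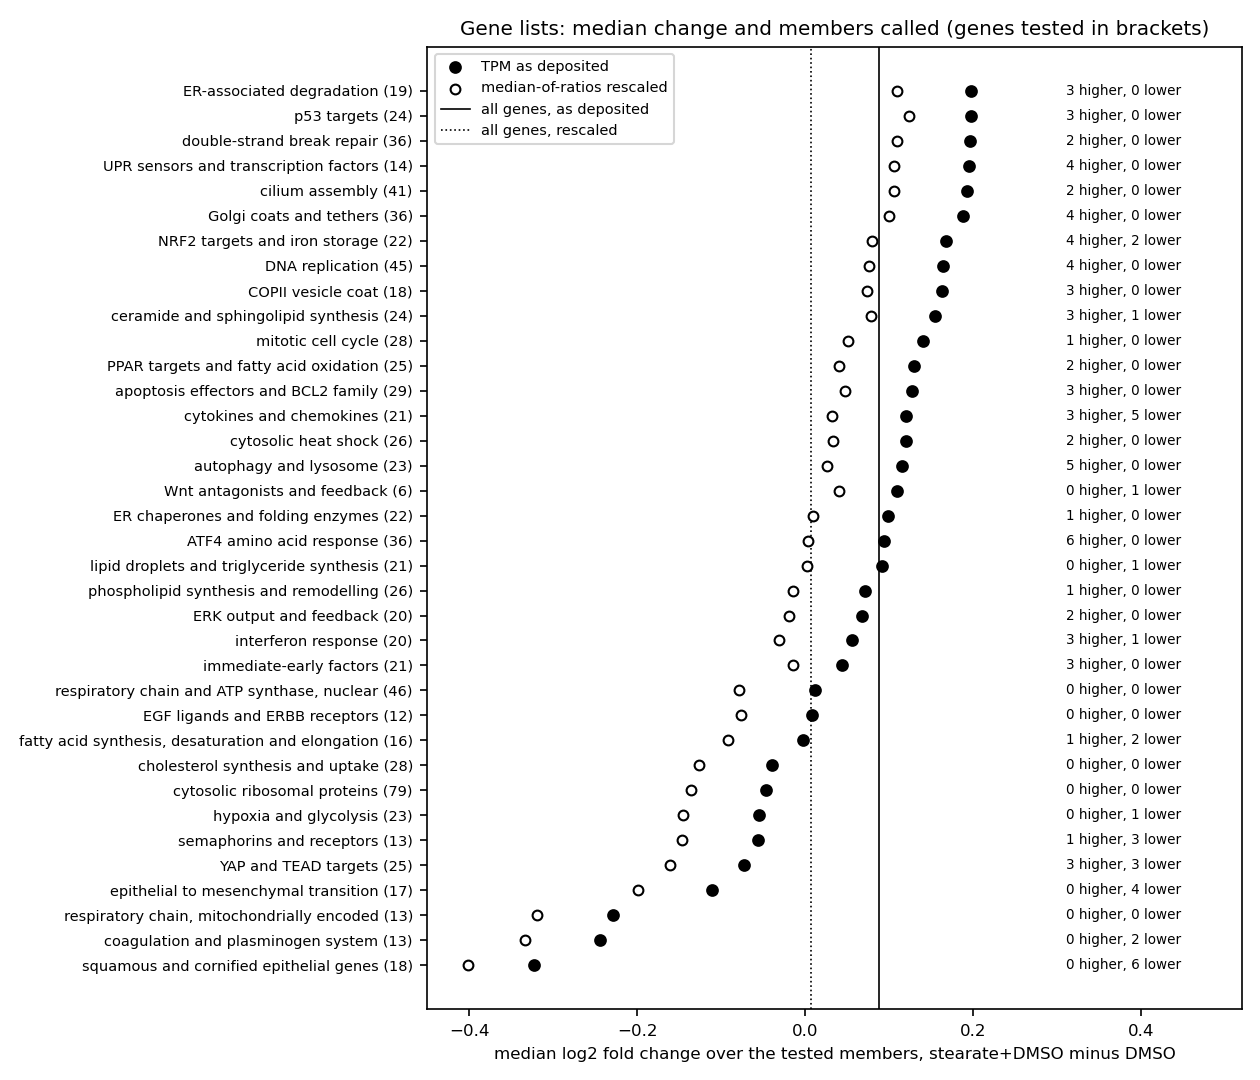
Median log2 fold change of stearate+DMSO minus DMSO over the tested members of 36 gene lists (number tested in brackets), as deposited (filled) and after median-of-ratios rescaling (open), with the medians of all genes as lines at 0.09 and 0.0063. The counts of members called as deposited stand at the right; the lists run from -0.32 for squamous genes to 0.20 for ER-associated degradation, and rescaling moves every list to the left.

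RNA encoded by mitochondria was lower in 2 of the 3 stearate samples. The share of TPM from mitochondrial genes was 6.44%, 6.76% and 6.22% in the DMSO samples and 4.93%, 5.32% and 6.47% with stearate, so stearate+DMSO replicate 3 lay among the controls. Within the oleate+DMSO group alone this share ran from 4.30% to 7.31%. All 13 mitochondrially encoded respiratory chain mRNAs had a log2 fold change below 0, with a median of -0.23 (-0.32 rescaled), and 0 were called. For MT-ND4 the values were 7265, 7727 and 7037 TPM against 5055, 5486 and 7560 TPM (FDR = 0.152). In stearate+CAY10566 minus CAY10566, 9 of these 13 lay above 0, with a median of 0.04. Of 46 nuclear-encoded genes of the respiratory chain and ATP synthase, 0 were called as deposited and their median was 0.01 (-0.08 rescaled). Of the 79 cytosolic ribosomal protein genes, 0 were called on either scaling, and 45 had all 3 stearate values below all controls, as did 9.57% of all genes. Their median was -0.05 (-0.14 rescaled), and it turned to 0.013 after removal of length and GC trends.

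The change with stearate also varied with transcript length, with the genes split into 10 bins of equal size. The median log2 fold change was -0.00 in the bin of the shortest transcripts and 0.20 in the longest, and 322 of the 745 higher calls were in the 2 longest bins against 56 in the 2 shortest. By GC content, the median went from 0.17 in the bin with the lowest GC to -0.01 in the highest. In single samples, the median deviation from the control mean was higher in the longest than in the shortest bin by 0.30, 0.22 and 0.08 for stearate+DMSO replicates 1 to 3, against 0.01, -0.04 and 0.01 for DMSO. It was also 0.35 in CAY10566 replicate 3, which had no stearate, and 0.32, 0.39 and 0.36 in the oleate+DMSO samples. After the trends on length and GC were removed from each sample, 544 genes were higher and 185 lower (74.6% higher), and with rescaling as well, a setting chosen after seeing the data, 195 and 310 (38.6% higher). TPM from nuclear rRNA genes was 3038 in stearate+DMSO replicate 3 and 964 to 1507 in the other 5 samples. The part of these library differences in the calls was not tested. All 12 of the largest falls were called after removal of the trends, as were 11 of the 12 largest rises, all but SRGAP2B.

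**Figure D4:**
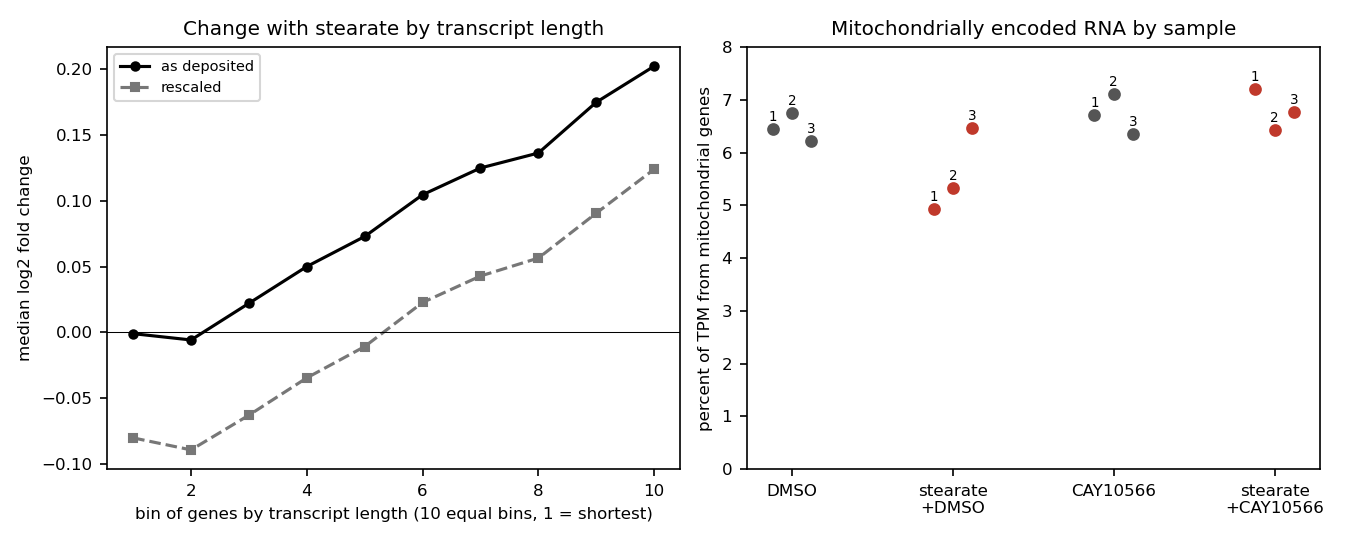
Left, the median log2 fold change of stearate+DMSO minus DMSO in 10 equal bins of the genes by transcript length, as deposited and after rescaling, going from -0.00 to 0.20 as deposited. Right, the percent of TPM from mitochondrially encoded genes in each sample, numbered by replicate, on an axis from 0; stearate+DMSO replicates 1 and 2 (4.93% and 5.32%) are the lowest of the 12 samples drawn.

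The same fatty acid step was made a second time in cells with CAY10566, in 6 libraries that shared none with the comparison above. There, 18 genes were called higher (0.131%) and 54 lower (0.394%). Of the 985 genes called with DMSO, 59 (5.99%) were called again in the same direction and 0 in the opposite one, which is 81.9% of the 72 calls made with CAY10566. They comprised 14 rises and 45 falls. Counting signs alone, 658 of the 745 rises (88.3%) were above 0 with CAY10566, where 57.3% of all genes were, and 213 of the 240 falls (88.8%) were below 0, where 42.4% of all genes were. The median log2 fold change of the 240 falls was -0.51 with DMSO and -0.34 with CAY10566, and that of the 745 rises 0.43 and 0.17. These genes were called on the DMSO samples, so their size there was part of the choice, and no test was run on the difference between the medians. Of the controls of this step, CAY10566 replicate 3 had an excess of the longest over the shortest transcript bin of 0.35. In replicates 1 and 2 it was 0.07 and 0.03. The 2 longest bins held 322 of the 745 rises. The part of this library in the smaller rises and in the 18 higher calls was not tested.

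Of the 12 largest falls, 12 were below 0 with CAY10566, 10 had no overlap between the groups (8.58% of all genes had none in this direction) and 7 were called. F3 measured 384, 375 and 388 TPM with CAY10566 alone and 133, 129 and 136 TPM with stearate and CAY10566, a log2 fold change of -1.52 (standard error 0.03, FDR = 2.89e-05). IL24 went from 9.17, 9.44 and 7.98 TPM to 2.75, 2.11 and 1.69 TPM (-1.64, FDR = 0.0134). The size of both falls was therefore nearly that seen without the inhibitor. Of the 12 largest rises, 11 were above 0, 6 had no overlap (12% of all genes had none in this direction) and 3 were called: EGR1 (1.01, FDR = 0.00403), DHRS2 (0.52) and NGFR (0.63). PIGY (-0.11) was the exception in sign. Among the 59 genes, the following were chosen after their values were seen. ICAM1, an adhesion molecule for leukocytes, had log2 fold changes of 0.64 with DMSO and 0.45 with CAY10566, the NF-κB-induced gene TNFAIP2 0.44 and 0.40, and the lncRNA gene DLGAP1-AS2 0.67 and 0.72. On the lower side were LTB, lymphotoxin β (-0.47 and -0.49), IL7R (-0.73 and -0.82), CCL22 (-0.77 and -0.64), TM4SF1, a tetraspanin-like surface protein (-0.55 and -0.49), and ALDH1A3, a retinaldehyde dehydrogenase (-0.53 and -0.89). From the gene lists, HERPUD1 (0.35 and 0.34), CHAC1 (0.45 and 0.53), CXCL3 (0.55 and 0.57), SRXN1 (0.45 and 0.37), UGCG (-0.55 and -0.67) and IL6 (-0.40 and -0.64) were called in both.

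**Figure D5:**
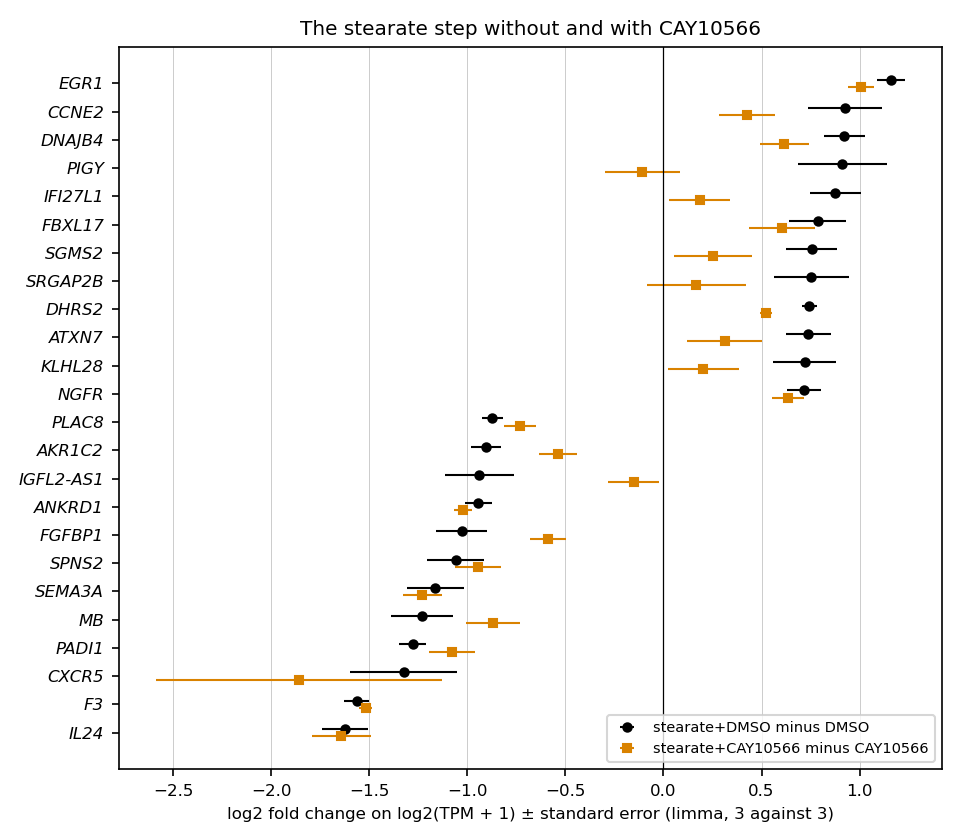
Log2 fold change with its standard error (limma, 3 samples against 3) of the 24 genes with the largest rises and falls, for stearate+DMSO minus DMSO (circles) and for stearate+CAY10566 minus CAY10566 (squares), which share no libraries. IL24, F3, SEMA3A, ANKRD1, EGR1 and NGFR lie close together in both, while PIGY, IFI27L1 and IGFL2-AS1 lie near 0 with CAY10566.

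The difference between the stearate step with DMSO and that with CAY10566 was tested as an interaction over the 12 libraries. In limma with Benjamini-Hochberg adjustment, 0 of 13720 genes were called, and 1201 had an unadjusted p under 0.05. The smallest FDR was that of FDPS, a farnesyl diphosphate synthase of the cholesterol pathway, with -0.22 for DMSO and 0.12 for CAY10566 (difference -0.34, standard error 0.04, FDR = 0.0758). CA9 had -0.84 and 0.10 (difference -0.94, standard error 0.16, FDR = 0.273), and for FASN, at -0.71 and -0.27, the difference was -0.44 (FDR = 0.465). The stearate response is thus not shown to differ between the inhibitor states for any of these genes, nor shown to be alike. FDPS was chosen after its values were seen.

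Stearate+DMSO was also set beside oleate+DMSO, which holds the product of the desaturase at the same dose and time; as the stearate libraries are the same as above, the values are given side by side only. Between these fatty acids, 97 genes were higher (0.707%) and 350 lower (2.55%) with stearate, 3.26% in all. F3 measured 408, 386 and 398 TPM with oleate and IL24 10.8, 9.49 and 11.5 TPM, so both lay at or above the DMSO controls with oleate and far below with stearate (log2 fold change of stearate minus oleate -1.70 and -1.87). Of the 12 largest falls, 10 were called lower with stearate than with oleate; CXCR5 (0.44, FDR = 0.458) and FGFBP1 (-0.37, FDR = 0.137) were not. Of the 12 largest rises, 4 were called higher than with oleate: EGR1 (0.81), DHRS2 (0.88), IFI27L1 (0.58) and NGFR (0.51). For ATXN7 (0.01), SGMS2 (0.03), KLHL28 (-0.04) and SRGAP2B (0.04) the difference from oleate was near 0, with standard errors of 0.11, 0.15, 0.08 and 0.18 in the same order. SCD was higher with stearate than with oleate by 0.54 (FDR = 0.025), at 170, 152 and 131 TPM against 104, 107 and 99.9 TPM, while FASN did not differ detectably (0.06, standard error 0.07, FDR = 0.684). CHAC1 (0.62), SRXN1 (0.52), CXCL3 (0.55), SQSTM1 (0.43), SEC24D (0.42) and SESN2 (0.33) were called higher with stearate than with oleate. SEL1L (-0.13, FDR = 0.46), ERN1 (-0.15, FDR = 0.38) and SLC7A11 (-0.06, FDR = 0.63) were not called. The excess of the longest over the shortest bin was 0.32, 0.39 and 0.36 with oleate+DMSO and 0.30, 0.22 and 0.08 with stearate+DMSO. Length and GC trends were not removed here. SEL1L (7919 bases), ERN1 (9028) and SLC7A11 (9645) have long transcripts, and CHAC1 (1520) and SRXN1 (2528) shorter ones. The part of transcript length in this comparison was not tested.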

How the data were processed

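The authors sequenced poly(A) RNA (TruSeq stranded mRNA libraries, NovaSeq, paired-end), trimmed the reads with Trim Galore, aligned them to GRCh38 with STAR 2.7.1a and estimated abundance with RSEM; the deposited values are TPM per gene, with the same total in each sample. No counts were used, so neither depth nor a count-based interval could be given. Here, TPM was taken as log2(TPM + 1), genes with a mean of at least 1 TPM over the 6 samples were kept, and 1 line that named no gene was left out. Groups were compared with limma 3.58.1 (R 4.3.3; moderated test with a mean trend, two-sided, Benjamini-Hochberg adjustment over 13720 genes). Symbols, lengths and positions came from GENCODE 44 and promoters from RefSeq (GRCh38.p14), 250 bases before the start.

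Genes named by rule were the 7 whose products the study names (ATF6, ERN1, EIF2AK3, XBP1, ATF4, DDIT3, SCD), the 12 largest rises and 12 largest falls among called genes with a symbol, a mean of at least 5 TPM and no overlap between the groups, up to 4 called members of each gene list with the largest change (where none was called, the 2 with the largest change), and cell type markers; all other genes were chosen after their values were seen. The members and lists were chosen with earlier results of these data known. Alternatives were median-of-ratios rescaling, other pseudocounts and filters, no trend, all 18 samples, a replicate block, removal of length and GC trends, and leaving out each replicate. The fit was tested on simulated data. Columns of samples were matched by name to the labels.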

Additional observations from a re-analysis of the deposited data

How the results depend on the processing

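For stearate+DMSO against DMSO, where 745 genes were higher and 240 lower, no filter on TPM gave 166 and 121, and median-of-ratios rescaling 342 and 416. Rescaling together with removal of length and GC trends, chosen after seeing the data, gave 195 higher. Leaving out 1 replicate gave 50 to 1182 higher and 77 to 242 lower. For stearate+CAY10566 against CAY10566 (18 and 54), rescaling gave 91 lower, no filter 32 lower, and no mean trend 10 higher and 26 lower; leaving out 1 replicate gave 4 to 12 higher and 6 to 41 lower. For the interaction (0 and 0), no filter gave 1 and 3, and leaving out 1 replicate 0 to 1 and 0 to 2. For stearate+DMSO against oleate+DMSO (97 and 350), rescaling gave 158 higher, no filter 50 and 175, no mean trend 218 lower, and leaving out 1 replicate 34 to 51 higher and 100 to 221 lower. The replicate block gave 255 and 136, 4 and 8, 0 and 0, and 15 and 63 in the same order of comparisons. The same-numbered deviations correlated at 0.07, -0.03 and -0.06 for DMSO and stearate+DMSO, at 0.13, 0.05 and 0.07 for CAY10566 and stearate+CAY10566, where each sample correlated best with its own number, and at -0.03, -0.00 and -0.04 for oleate+DMSO and stearate+DMSO, so pairing by number was not taken as shown in any comparison. The cause of these shifts was not tested, except that no filter tests more genes and a left-out replicate leaves fewer samples.

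Of 130 named genes, 95 kept direction and call after rescaling, 28 lost a call, 7 gained one and 0 changed sign; with a pseudocount of 0.1 all 130 kept both. Sign changes were limited to uncalled genes. With length and GC trends removed these were ATF6 (-0.0056), CD68 (0.0066), CLDN7 (0.013), FOLR1 (0.013) and PAX8 (0.015), and with rescaling as well ATF6 (-0.087). Leaving out 1 replicate moved CDH1 between -0.19 and 0.035, FOLR1 between -0.25 and 0.086, MUC2 between -0.49 and 0.20, and PAX8 between -0.11 and 0.10. Of the 36 list medians, 32 moved by more than their spread on rescaling. As depth is unknown, low TPM values are the least certain.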
